A study of Mus musculus with 16 samples.

Results

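Type I interferon response genes were examined as a module of 35 genes, out of 30199 genes measured in the liver of female mice. The rule takes the members by gene symbol, as interferon-stimulated genes together with their STAT, IRF and RNA-sensor regulators. All 35 were found in the table of gene levels, and all 35 passed the filter for testing, 10 or more normalized counts on average across the 16 livers. By role they comprise 3 transcriptional regulators, 5 nucleic acid sensors, 17 antiviral effectors, 6 genes of the ubiquitin and ISG15 system, 2 ADP-ribosyltransferase genes and 2 others, Xaf1 and Ifi35.

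The livers came from 16 female mice aged 5 months, 4 in each of 4 genotypes. Wild-type mice carried both copies of Ncoa5 and of Tip30. The other groups carried a heterozygous deletion of Ncoa5 (Ncoa5+/-), of Tip30 (Tip30+/-), or of both (Ncoa5+/-Tip30+/-, called double heterozygotes below). Ncoa5 makes a protein that works with nuclear receptors as a coregulator. Tip30, named Htatip2 in the gene table, has been studied as a tumour suppressor gene. All mice ate a standard diet, and the labels name no agent, infection or interferon treatment. The mouse strain is not given. Each library was made from a piece of frozen whole liver, which the labels describe as mainly hepatocytes, so a lower number of cells of a type and less RNA per cell cannot be told apart. Mice are numbered 1 to 4 within a genotype in the order of their records, and these numbers pair no mice.

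Type I interferons are secreted when a cell senses foreign or misplaced nucleic acid. They bind the receptor IFNAR, whose kinases activate STAT proteins, and these join IRF9 in a complex that enters the nucleus and binds a DNA element called the interferon-stimulated response element. The genes driven in this way hold viruses in check, and several of them, such as Irf7 and the RNA sensors, feed back on the production of interferon. In the liver the response is known from viral hepatitis and from interferon therapy, and both hepatocytes and the resident macrophages, the Kupffer cells, can mount it.

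The element is shown here in 3 promoters because it is the sequence through which the module is known to be driven. Its core was searched as GAAANNGAAA on both strands, with overlapping matches counted, in the 250 bases before each annotated start (RefSeq, GRCm38.p6). A promoter sequence was at hand for 25 of the 35 members. The core was present in 9 of these 25 (36%), against 936 of 27025 genes with a promoter sequence (3.46%). Of the 9 members with a sequence that were called higher with the Ncoa5 deletion, as described below, 3 held the core (33.3%), and of the 16 others 6 did (37.5%). A match is a description of letters and not a measured binding site. The promoters printed are those of the 3 members with the smallest p in that comparison whose windows hold the core, each 5′ to 3′ towards the gene, with matches in capitals. In Bst2 2 overlapping matches lie 115 to 130 bases before the start, in Oas1a 2 lie 5 to 20 bases before it, and in Isg15 3 lie 57 to 78 bases before it. The windows of Eif2ak2 and Dtx3l, the members of largest p among those with a sequence, hold no match and lie wholly or partly in annotated exons (250 and 179 bases), so they are not printed.
Bst2, chr8:71537473-71537722, minus strand: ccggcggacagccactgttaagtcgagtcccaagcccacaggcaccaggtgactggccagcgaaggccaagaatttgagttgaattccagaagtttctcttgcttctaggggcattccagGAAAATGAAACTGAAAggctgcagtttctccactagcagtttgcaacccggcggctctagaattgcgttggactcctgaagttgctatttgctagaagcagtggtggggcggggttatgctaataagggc
Oas1a, chr5:120907526-120907775, minus strand: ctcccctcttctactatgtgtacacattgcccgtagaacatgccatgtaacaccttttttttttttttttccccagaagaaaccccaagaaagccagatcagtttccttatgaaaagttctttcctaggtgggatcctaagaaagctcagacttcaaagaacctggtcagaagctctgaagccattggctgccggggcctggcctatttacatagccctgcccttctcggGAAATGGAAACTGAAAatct
Isg15, chr4:156200819-156201068, minus strand: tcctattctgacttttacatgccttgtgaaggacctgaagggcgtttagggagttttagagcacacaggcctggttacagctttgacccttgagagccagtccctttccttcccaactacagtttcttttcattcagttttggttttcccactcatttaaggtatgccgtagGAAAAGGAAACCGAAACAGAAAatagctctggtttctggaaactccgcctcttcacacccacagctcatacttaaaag

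Between 24740706 and 37939978 reads were assigned to genes per library, and 21686 to 24142 genes had at least 1 read. Each member had at least 16 reads in every library, so no value of a member rests on a count near 0. No 2 libraries of a group were copies of each other. Htatip2 was lower in Tip30+/- livers than in wild type (log2 -1.41 ± 0.13 SE, limma adjusted p = 5.88e-05) and in double heterozygotes (log2 -1.08, adjusted p = 0.000231). Ncoa5 itself differed by log2 -0.16 ± 0.10 in livers labelled Ncoa5+/- (adjusted p = 0.658) and by -0.11 over all 8 livers with that label (adjusted p = 0.357). The reads of Ncoa5 therefore do not check the Ncoa5 genotype, and the groups are called by their labels. Levels are normalized counts, reads divided by a size factor per library, and log2 differences are differences of log2(normalized count + 1) with n = 4 livers a group unless another n is given. A gene is called when its limma p, adjusted over all 15263 genes tested, is below 0.05.

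In the livers labelled with the Ncoa5 deletion, 13 of 35 interferon response genes rose and none fell, when the 8 livers with that label were compared with the 8 without it and each Tip30 genotype was weighted equally. These 13 are 37.1% of the members. Over all genes 7.89% were called in this comparison and 3.94% were called higher. The members that rose were the transcription factor gene Irf7, the sensor gene Zbp1, the antiviral genes Bst2, Oas1a, Oas2, Oasl2, Ifitm3 and Rtp4, the genes Isg15, Usp18 and Herc6 of the ISG15 system, and Xaf1 and Ifi35. Their changes ran from log2 0.40 for Ifi35 to 1.13 for Oas1a, that is from 1.32-fold to 2.18-fold. With no adjustment, 25 members lay higher at p below 0.05 (71.4%, against 11.8% of all genes), and 32 of 35 had a log2 difference above 0 (against 48.3%). The median difference over the members was 0.53, and over all genes -0.01. No member had all 8 livers with the deletion above all 8 without it, which held for 0.786% of all genes.

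**Figure D1:**
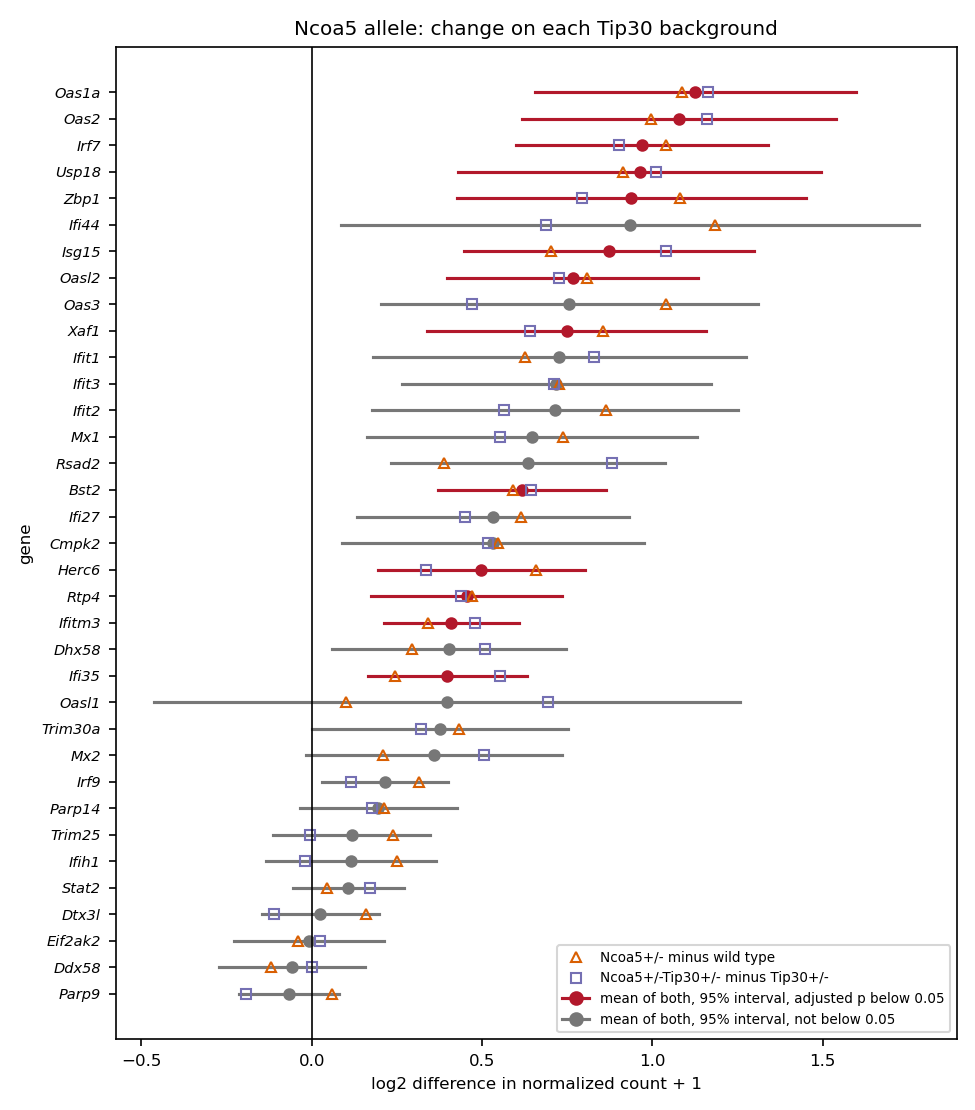
Log2 difference (normalized count + 1) of each of the 35 genes between livers with and without the labelled Ncoa5 deletion, ordered by size. Circles and bars give the mean over both Tip30 backgrounds with its 95% interval (8 livers against 8), red where the adjusted p is below 0.05, triangles the difference of Ncoa5+/- from wild type and squares that of double heterozygotes from Tip30+/- (4 against 4 each). The 13 red genes lie between 0.40 and 1.13, and for the lowest genes, Eif2ak2, Ddx58 and Parp9, the mean lies between -0.07 and -0.01.

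Among the 3 regulators, only Irf7 was called. Irf7 (ENSMUSG00000025498, GRCm38 chr7:141262706-141266481, minus strand) encodes the factor that switches on interferon genes in cells already exposed to interferon. It read 963, 1107, 726 and 514 normalized counts in wild types 1 to 4, and 1539.7, 1837, 1336 and 1885 in livers labelled Ncoa5+/-. In Tip30+/- livers the values were 703, 717, 568 and 714, and in double heterozygotes 874, 1957, 1454 and 1003. All 4 livers labelled Ncoa5+/- lay above all 4 wild types, and all 4 double heterozygotes lay above all 4 Tip30+/- livers, while double heterozygotes 1 and 4 lay within the wild-type range. The change with the Ncoa5 deletion was log2 0.97 ± 0.17 (95% interval 0.60 to 1.34, adjusted p = 0.00430), or 1.96-fold. Irf9 and Stat2, the DNA-binding and activating partners of the interferon complex, differed by log2 0.22 (adjusted p = 0.130) and 0.11 (adjusted p = 0.396). Irf7 shares 45 exon bases with Phrf1 on the opposite strand, and Irf9 shares 123 with Rnf31 on the same strand. The libraries are not stated to keep strand, so reads in such overlaps are uncertain.

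Among the 5 sensors, Zbp1 rose and the other 4 were not called by limma without covariates. Zbp1 (ENSMUSG00000027514, chr2:173206612-173218923, minus strand) encodes a receptor for Z-form nucleic acid that can start inflammatory cell death. It read 406, 428, 159 and 209.9 in wild type, 634, 618, 386 and 772 in livers labelled Ncoa5+/-, 194, 253, 143 and 230.4 in the Tip30+/- livers and 257, 596, 359 and 269 in the double heterozygotes. Every double heterozygote lay above every Tip30+/- liver, while wild types 1 and 2 lay above Ncoa5+/- 3. The change with the Ncoa5 deletion was log2 0.94 ± 0.24 (interval 0.43 to 1.45, adjusted p = 0.0301). Dhx58, which encodes LGP2, differed by log2 0.40 (adjusted p = 0.127). With the mouse tag range as a covariate limma called Dhx58, with 1937 of 15263 genes called. Ifih1, which encodes MDA5, differed by 0.12 (adjusted p = 0.566) and Eif2ak2, the gene of the kinase PKR, by -0.01 (adjusted p = 0.974).

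Ddx58 (ENSMUSG00000040296, chr4:40203773-40239828, minus strand) encodes RIG-I, the sensor of uncapped viral RNA, and most of its lower values were in livers with the Tip30 deletion. Its values were 1154, 1113, 734 and 869 in wild type and 968, 965, 733 and 859 in livers labelled Ncoa5+/-. In Tip30+/- it read 594, 579.6, 681 and 796, and in double heterozygotes 609, 659, 703 and 665. All double heterozygotes lay below all wild types and below all livers labelled Ncoa5+/-, and Tip30+/- 4 alone among the Tip30-deleted livers lay within the wild-type range. The Ncoa5 difference was log2 -0.06 ± 0.10 (adjusted p = 0.756). The Tip30 difference over both Ncoa5 backgrounds was -0.47 ± 0.10 (interval -0.69 to -0.26, unadjusted p = 0.000221, adjusted p = 0.0733). Against wild type the double heterozygotes differed by -0.53 ± 0.14 (adjusted p = 0.0560). Neither passed by limma, while the second passed with the mouse tag range as a covariate (log2 -0.53, adjusted p = 0.0424) and without wild type 3 (-0.66, adjusted p = 0.0175). Without the 4 livers low in Zhx2, described below, it was -0.28 (adjusted p = 0.376). DESeq2 on the whole reads called both, at log2 -0.48 (adjusted p = 0.00383) and -0.55 (adjusted p = 0.0144).

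Of the 17 antiviral effectors 6 rose with the Ncoa5 deletion and all 17 had a difference above 0, from log2 0.36 for Mx2 to 1.13 for Oas1a. Bst2 (ENSMUSG00000046718, chr8:71534255-71537456, minus strand) encodes tetherin, which holds budding virions on the cell surface. It read 6145, 6083, 5552 and 4714 in wild type, 9314, 9828, 6694 and 8198 in livers labelled Ncoa5+/-, 4742, 4790.1, 4946 and 5592 in the Tip30+/- livers and 7046, 10919.7, 8472 and 5742 in the double heterozygotes. Livers labelled Ncoa5+/- lay wholly above wild type, and double heterozygotes wholly above Tip30+/-. The change was log2 0.62 ± 0.12 (interval 0.37 to 0.86, adjusted p = 0.00508), and Bst2 was the only member that limma without covariates called between double heterozygotes and Tip30+/- (log2 0.64 ± 0.17, adjusted p = 0.0450).

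The oligoadenylate synthetases make the second messenger that activates RNase L, which degrades RNA. Oas1a (ENSMUSG00000052776, chr5:120896256-120907521, minus strand) read 105, 150.4, 100.2 and 64.5 in wild type, 144, 309.6, 179 and 267 in livers labelled Ncoa5+/-, 78.5, 101, 68.1 and 72.7 in the Tip30+/- livers and 119, 291, 238 and 124 in the double heterozygotes. Oas2 (ENSMUSG00000032690, chr5:120730333-120749853, minus strand) read 63.4, 113, 82.4 and 31.0 in wild type, 107, 145, 115 and 168 in livers labelled Ncoa5+/-, 84.4, 61.3, 51.5 and 57.3 in the Tip30+/- livers and 101, 191, 146 and 140.3 in the double heterozygotes. For both genes the double heterozygotes lay above all Tip30+/- livers, and wild type 2 was the only wild type that reached into the range of the livers labelled Ncoa5+/-. Oas1a rose by log2 1.13 ± 0.22 (interval 0.65 to 1.60, adjusted p = 0.00734) and Oas2 by 1.08 ± 0.22 (0.62 to 1.54, adjusted p = 0.00798). Oas1a has a near-identical neighbour, Oas1g, with which reads may have been shared.

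Oasl2, the gene of a synthetase-like protein (ENSMUSG00000029561, chr5:114896936-114912234, plus strand), read 84.9, 155, 85.2 and 67.1 in wild type and 110.4, 174, 173 and 216 in livers labelled Ncoa5+/-. It read 85.3, 96.4, 66.1 and 71.7 in the Tip30+/- livers and 104, 167, 129 and 133 in the double heterozygotes. Wild type 2 again lay among the livers with the deletion, and the double heterozygotes did not overlap with Tip30+/-. The change was log2 0.77 ± 0.18 (interval 0.40 to 1.14, adjusted p = 0.0154). Of the other members of the family, Oas3 differed by log2 0.76 (adjusted p = 0.0823) and Oasl1 by 0.40 ± 0.40 (adjusted p = 0.564). Oasl1 varied widely between livers of a group, from 117 to 672 normalized counts in wild type and from 171 to 929 in livers labelled Ncoa5+/-, and it lay between 139 and 156 in all 4 Tip30+/- livers.

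Ifitm3 (ENSMUSG00000025492, chr7:141009586-141010770, minus strand), whose membrane protein blocks the fusion of viruses in endosomes, was the member with the highest level per length. Wild-type livers held 13007 ± 1336 normalized counts per kb of exon (SD, n = 4) of Ifitm3, 6227 ± 733 of Bst2 and 1846 ± 269 of Ifi27. The lowest levels per kb were those of Mx1 at 7.59 ± 2.76 and Oas3 at 5.65 ± 3.59. Ifitm3 read 9294, 9819, 8352 and 7810.4 in wild type, 12803, 11451, 10391 and 10038 in livers labelled Ncoa5+/-, 6988, 8081, 7999 and 8870.2 in the Tip30+/- livers and 10248, 13983, 11788 and 8951 in the double heterozygotes. The groups that differ by the Ncoa5 label did not overlap on either Tip30 background. The change was small, log2 0.41 ± 0.09 (interval 0.21 to 0.61, adjusted p = 0.0158), or 1.33-fold.

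Rtp4 (ENSMUSG00000033355, chr16:23520291-23614222, plus strand), an interferon-induced gene of a receptor-transporting protein, read 604, 568, 401 and 377 in wild type and 687, 743, 507 and 739 in livers labelled Ncoa5+/-. It read 375, 371, 353 and 377 in the Tip30+/- livers and 463, 706, 364 and 526 in the double heterozygotes. Wild types 1 and 2 lay above Ncoa5+/- 3, and double heterozygote 3 lay within the Tip30+/- range. The change was log2 0.45 ± 0.13 (interval 0.17 to 0.74, adjusted p = 0.0458), and Rtp4 shares 296 exon bases with another gene model on the same strand. The 11 other effectors were not called by limma without covariates. Of these 11, DESeq2 called Ifi27, Ifit1, Ifit3, Mx1 and Rsad2 higher, with 1891 genes called of the 30199 with a read. The filter of DESeq2 can leave some of the 30199 without an adjusted p, so they are not all genes tested. By edgeR Ifit3 and Rsad2 were called (1126 of 15263). With the mouse tag range as a covariate limma called Ifit1, Ifit2, Ifit3, Mx1, Mx2 and Rsad2 (1937 of 15263). Among the 11 were Rsad2, which encodes viperin, at log2 0.63 (adjusted p = 0.0503), and the RNA-binding genes Ifit3 at 0.72 (0.0503), Ifit1 at 0.73 (0.0913) and Ifit2 at 0.71 (0.0904). The dynamin-like Mx1 stood at 0.65 (adjusted p = 0.0882), Ifi27 at 0.53 (0.0893), Ifi44 at 0.93 ± 0.40 (0.152), Cmpk2 at 0.53 (0.122) and Mx2 at 0.36 (0.212). The unadjusted 95% intervals lay above 0 for 8 of these 9, all but Mx2.

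In the ubiquitin and ISG15 system, Isg15, Usp18 and Herc6 rose, and Trim25, Trim30a and Dtx3l were not called. Isg15 (ENSMUSG00000035692, chr4:156199424-156200818, minus strand) encodes the ubiquitin-like protein that is attached to other proteins during the response. It read 345, 378, 190.0 and 211 in wild type, 520.4, 463, 284 and 538 in livers labelled Ncoa5+/-, 141, 173, 178 and 199 in the Tip30+/- livers and 324, 615, 325 and 240.3 in the double heterozygotes. Wild types 1 and 2 lay above Ncoa5+/- 3, and all double heterozygotes lay above all Tip30+/- livers. The change was log2 0.87 ± 0.20 (interval 0.45 to 1.30, adjusted p = 0.0178).

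Usp18 (ENSMUSG00000030107, chr6:121245906-121270917, plus strand) encodes the protease that removes ISG15 and also restrains signalling from IFNAR. It read 339, 305, 136 and 126 in wild type, 439, 429, 210.3 and 567 in livers labelled Ncoa5+/-, 85.3, 137, 93.3 and 124 in the Tip30+/- livers and 176, 321, 237 and 169 in the double heterozygotes. The double heterozygotes lay above all Tip30+/- livers, while 3 of the 4 lay below wild types 1 and 2. With the Ncoa5 deletion Usp18 rose by log2 0.96 ± 0.25 (interval 0.43 to 1.496, adjusted p = 0.0317). Over both Ncoa5 backgrounds it differed with the Tip30 deletion by -0.87 ± 0.25 (interval -1.41 to -0.34, unadjusted p = 0.00325, adjusted p = 0.196), and DESeq2 called this difference (log2 -0.95, adjusted p = 0.0112). Usp18 shares 124 exon bases with a gene model on the opposite strand.

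Herc6 (ENSMUSG00000029798, chr6:57581000-57664632, plus strand), the gene of a ligase that attaches ISG15 in mice, read 140.1, 148, 91.7 and 134 in wild type and 194, 193, 173 and 248 in livers labelled Ncoa5+/-. It read 93.8, 141, 127 and 159.8 in the Tip30+/- livers and 142, 212, 127 and 179 in the double heterozygotes. The livers labelled Ncoa5+/- lay wholly above wild type, and the other pair of groups overlapped. The change was log2 0.50 ± 0.14 (interval 0.19 to 0.80, adjusted p = 0.0439). Herc6 shares 1269 exon bases with another gene model on the same strand, so its reads are partly uncertain. Trim25, the gene of a ubiquitin ligase that acts on RIG-I, differed by log2 0.12 (adjusted p = 0.524), Trim30a by 0.38 (adjusted p = 0.190) and Dtx3l by 0.02 (adjusted p = 0.876).

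Parp9 and Parp14, genes of ADP-ribosyltransferase proteins, were not called in any comparison. Parp9 (ENSMUSG00000022906, chr16:35938470-35972605, plus strand), whose protein pairs with the ligase made from Dtx3l, read 1590.4, 1359, 1226 and 1288 in wild type and 1429, 1413, 1383 and 1443 in livers labelled Ncoa5+/-. It read 1152, 1408, 1180.4 and 1331 in the Tip30+/- livers and 1144, 1179, 978 and 1131 in the double heterozygotes. The double heterozygotes lay below all wild types and below all livers labelled Ncoa5+/-. Their difference from wild type was log2 -0.30 ± 0.10 (interval -0.51 to -0.09, adjusted p = 0.0993). Parp14 and Dtx3l lie beside Parp9 on chromosome 16 within 139.7 kb, and none of the 3 neighbours was called in any comparison. Parp9 and Dtx3l share 458 exon bases on opposite strands, so their values are not independent.

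Xaf1 and Ifi35 both rose with the Ncoa5 deletion. Xaf1 (ENSMUSG00000040483, chr11:72301629-72313733, plus strand), which encodes an antagonist of the apoptosis inhibitor XIAP, read 155, 159.8, 119 and 74.0 in wild type, 248, 236, 161 and 252 in livers labelled Ncoa5+/-, 103, 115, 91.4 and 111 in the Tip30+/- livers and 117, 303, 137 and 147 in the double heterozygotes. The groups that differ by the Ncoa5 label did not overlap on either Tip30 background, although the gaps between the nearest livers were narrow. The change was log2 0.75 ± 0.19 (interval 0.34 to 1.16, adjusted p = 0.0285). Ifi35 (ENSMUSG00000010358, chr11:101448407-101458698, plus strand), the gene of a leucine zipper protein, read 510.4, 582, 652 and 457 in wild type, 706, 768, 522 and 615 in livers labelled Ncoa5+/-, 507, 500.2, 426 and 530.5 in the Tip30+/- livers and 585, 959, 744 and 637 in the double heterozygotes. Ncoa5+/- 3 lay below wild types 2 and 3, and the double heterozygotes lay above all Tip30+/- livers. Ifi35 rose by log2 0.40 ± 0.11 (interval 0.16 to 0.63, adjusted p = 0.0377), and it shares 290 exon bases with a gene model on the opposite strand.

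**Figure D2:**
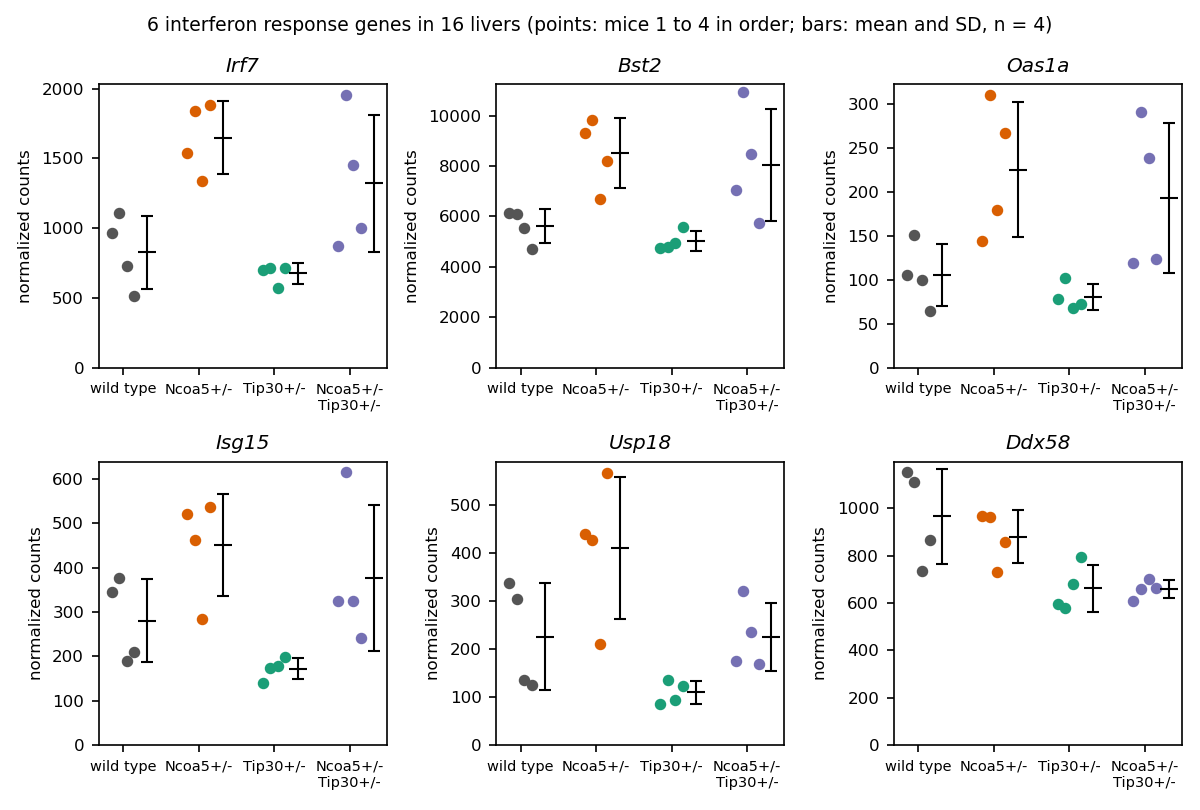
Normalized counts (vertical axes, from 0) of Irf7, Bst2, Oas1a, Isg15, Usp18 and Ddx58 in each liver, by genotype as labelled. Points are mice 1 to 4 from left to right, and bars give the mean and SD (n = 4). Irf7 lies between 1336 and 1885 in livers labelled Ncoa5+/- and between 514 and 1107 in wild type, while Ddx58 lies between 609 and 703 in double heterozygotes and between 734 and 1154 in wild type.

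The Ncoa5 comparison is made of 2 comparisons that share no liver, and these were similar in direction. Between livers labelled Ncoa5+/- and wild type no member was called by limma, with 0.557% of all genes called, and none by edgeR. DESeq2 called Irf7 and Oas1a higher, with 248 genes called of the 30199 with a read. With no adjustment, 18 of 35 members lay higher at p below 0.05 (51.4%, against 6.35% of all genes) and none lower. The smallest adjusted p was 0.0864, that of Irf7, and the median over the members was log2 0.55. The difference was above 0 for 33 members, against 47.5% of all genes. For 5 members, Irf7, Bst2, Ifitm3, Herc6 and Xaf1, the 4 livers labelled Ncoa5+/- lay above the 4 wild types (14.3%, against 3.25% of all genes).

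Between double heterozygotes and Tip30+/- livers, Bst2 was the only member called by limma, or 2.86% of the members, while 3.07% of all genes were called and 1.61% called higher. By edgeR 6 members were called, with 407 of 15263 genes, and by DESeq2 9, with 1145 of the 30199 genes with a read. With the mouse tag range as a covariate limma called 11 members, with 1344 of 15263 genes. All these members lay higher. At an unadjusted p below 0.05, 16 members lay higher (45.7%, against 9.79% of all genes) and none lower, and 31 had a difference above 0 (against 47.9%), with a median of log2 0.52. For 12 members the double heterozygotes lay wholly above Tip30+/- (34.3%, against 7.1% of all genes). These were Irf7, Zbp1, Bst2, Oas1a, Oas2, Oasl2, Rsad2, Ifitm3, Isg15, Usp18, Xaf1 and Ifi35. The difference was above 0 both here and between Ncoa5+/- and wild type for 29 of 35 members, against 31.8% of all genes, and below 0 in both for none.

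Whether the Ncoa5 difference depended on the Tip30 genotype was tested as the interaction of both deletions. None of the 35 members was called, the smallest adjusted p being 0.950, and none had an unadjusted p below 0.05. Of all genes 0% were called and 4.26% had an unadjusted p below 0.05. edgeR and DESeq2 called no member either. The interaction ran from log2 -0.57 to 0.59 over the 35 members, and 15 lay above 0. Its median was -0.03 over the members and -0.03 over all genes. These values do not show that the Ncoa5 difference was equal on both backgrounds.

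With the Tip30 deletion the members tended to lie lower, and none was called by limma. Against wild type Tip30+/- livers showed no call among the members by limma, edgeR or DESeq2, with 0.0131% of all genes called. At an unadjusted p below 0.05, 5 members lay lower, Ddx58, Rsad2, Ifit1, Isg15 and Usp18 (14.3%, against 3.87% of all genes), and none higher. Only 3 of 35 members had a difference above 0, against 52.3% of all genes, and the median was log2 -0.21. Between double heterozygotes and livers labelled Ncoa5+/- no member was called by the 3 tools, with 0.0197% of all genes called by limma. Here 7 members lay lower at an unadjusted p below 0.05 (20%, against 4.68% of all genes), 3 had a difference above 0 (against 46%), and the median was log2 -0.32. For Irf9, Ifih1, Ddx58, Dtx3l and Parp9 the double heterozygotes lay wholly below the livers labelled Ncoa5+/- (14.3% of members, against 2.12% of all genes). These 2 comparisons share no liver, and the difference was below 0 in both for 29 of 35 members, against 29.3% of all genes.

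Over both Ncoa5 backgrounds the Tip30 deletion gave no call among the members by limma or edgeR, with 0.131% of all genes called by limma. DESeq2 called 2 members, Ddx58 and Usp18, both lower, with 246 genes called of the 30199 with a read. At an unadjusted p below 0.05, 12 members lay lower (34.3%, against 6.68% of all genes) and none higher. The difference was above 0 for 1 of 35, against 50% of all genes. The median over the members was log2 -0.26, and the largest differences were those of Usp18 at -0.87, Oasl1 at -0.85 ± 0.40 (unadjusted p = 0.0535) and Ifi44 at -0.84 ± 0.40 (unadjusted p = 0.0525).

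Double heterozygotes stood between these directions when set against wild type. No member was called by limma or edgeR, with 2.67% of all genes called by limma. DESeq2 called Oas2 and Bst2 higher and Ddx58 lower, with 1099 genes called of the 30199 with a read. The share among genes that DESeq2 tested is not reported here. At an unadjusted p below 0.05, 6 members lay higher, Irf7, Bst2, Oas1a, Oas2, Ifitm3 and Ifi35 (17.1%, against 9.79% of all genes), and 2 lower, Ddx58 and Parp9 (5.71%, against 12.2%). For Ddx58 and Parp9 all double heterozygotes lay below all wild types, as held for 6% of all genes. No member lay wholly above wild type, and the share of all genes that did is not reported here. The median difference was log2 0.19 over the members and -0.01 over all genes. Of the 35 members 24 lay above 0, and the share of all genes that did is not reported here.

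**Figure D3:**
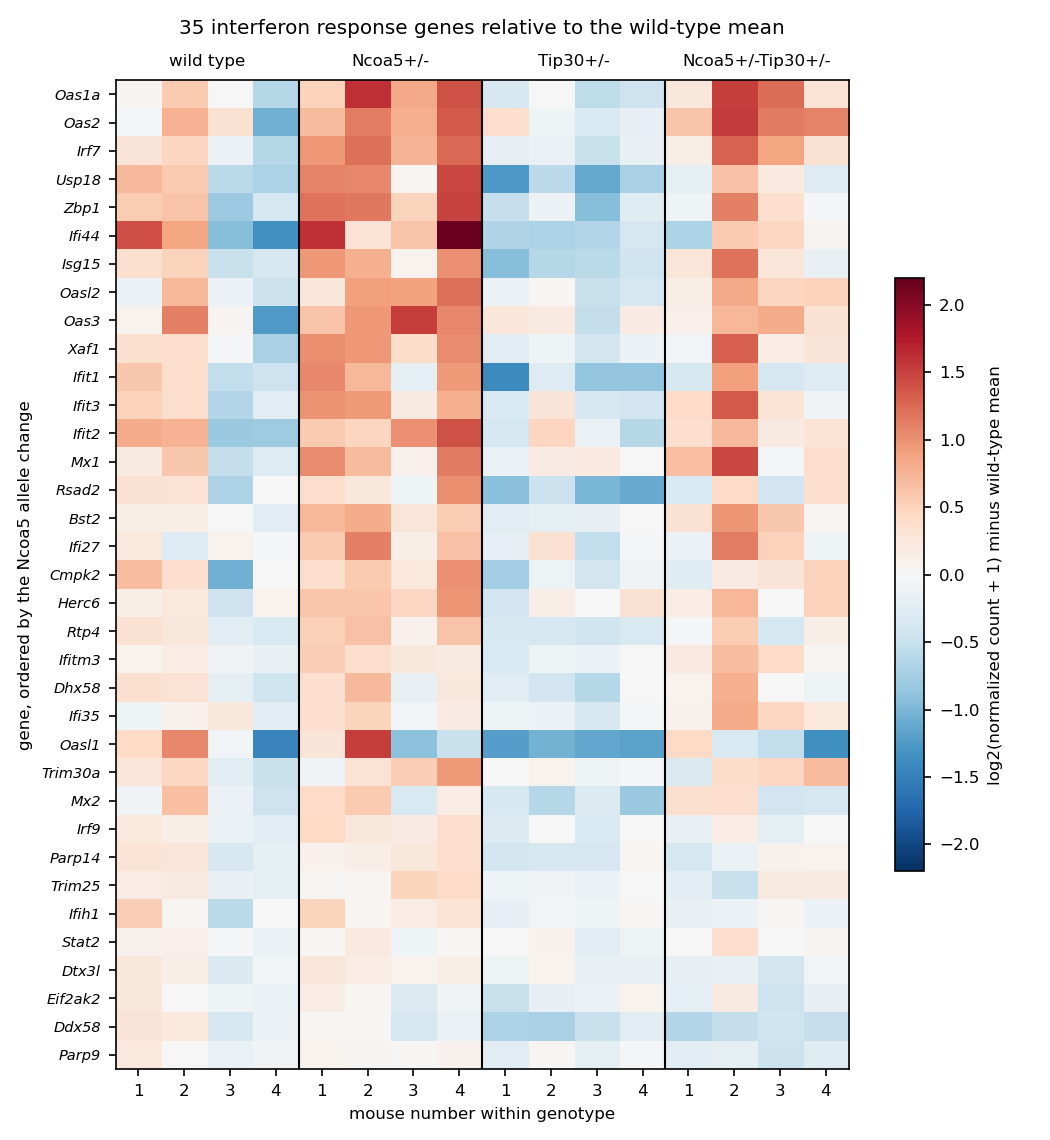
Log2(normalized count + 1) of each of the 35 genes (rows, ordered by the Ncoa5 difference) in each of the 16 livers (columns, by genotype as labelled) minus the wild-type mean, red higher and blue lower. Wild types 1 and 2 are redder than wild types 3 and 4 in most rows, and the Tip30+/- columns are mostly blue.

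Many members lay higher or lower together in single livers, also among the wild types, but not all did. Trim25 was lowest of all 16 livers in double heterozygote 2, at 1479 normalized counts. No correlation between members was tested. The level of a liver was summarised as the median over the 35 members of its log2 difference from the wild-type mean. It was 0.26, 0.36, -0.22 and -0.28 in wild types 1 to 4, and 0.51, 0.61, 0.18 and 0.78 in livers labelled Ncoa5+/-. In Tip30+/- it was -0.33, -0.11, -0.38 and -0.14, and in double heterozygotes -0.04, 0.67, 0.19 and 0.06. Wild types 1 and 2 thus lay above Ncoa5+/- 3 and above 3 of the 4 double heterozygotes. The highest of the 16 livers was a liver with the Ncoa5 label for 30 of 35 members, most often double heterozygote 2 (12 members) and Ncoa5+/- 4 (10). The lowest was a liver without that label for 32 members, most often wild type 4 (9) and Tip30+/- 3 (8). The shares of all genes for which these held are not reported here, so the counts are not read as particular to the members.

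Wild types 1 and 2 both lay above both wild types 3 and 4 for 31 of 35 members, against 24.1% of all genes, with a median difference of log2 0.64. The same 2 wild types carry mouse tags below 4300, and they and Ncoa5+/- 1 and 4 are the 4 livers with low Zhx2 reads, 8.77 to 26.3 normalized counts against 167 to 438 in the other 12. Zhx2 encodes a repressor of fetal liver genes. Within the lower range of tags the median over the members was log2 0.21 for Ncoa5+/- against wild type (2 livers against 2, 24 of 35 above 0) and 0.64 for double heterozygotes against Tip30+/- (2 against 3, 31 of 35). In the upper range these medians were 0.79 (2 against 2, 33 of 35) and 0.36 (2 against 1, 27 of 35). For Tip30+/- against wild type the median was -0.61 in the lower range (3 against 2, 0 of 35 above 0) and 0.14 in the upper range (1 against 2, 22 of 35), so the direction differed between ranges. Double heterozygotes against livers labelled Ncoa5+/- gave -0.29 and -0.35, and double heterozygotes against wild type -0.09 and 0.38. What a tag range stands for is not given in the labels, and the shares of all genes above 0 within a range are not reported here. In each genotype mice 1 and 2, which have neighbouring tags, were the closest pair of libraries over all genes (chi-square per gene 23.1 to 60.5, against 48.2 to 127.1 for the other pairs). With the 4 livers low in Zhx2 left out, a setting chosen after seeing the data, 12 members were called higher with the Ncoa5 deletion, 9 of them among the 13, and Xaf1, Ifi35, Herc6 and Rtp4 were lost (adjusted p = 0.0577 to 0.158).

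**Figure D4:**
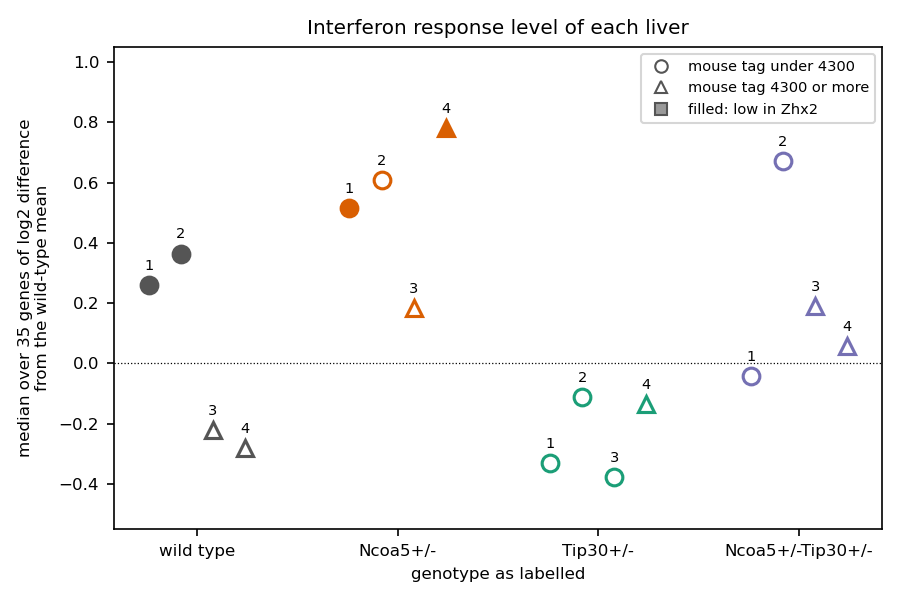
Median over the 35 genes of the log2 difference from the wild-type mean (vertical axis) in each liver, by genotype as labelled (horizontal axis), with the mouse number above each point. Circles are mouse tags under 4300, triangles higher tags, and filled symbols the 4 livers low in Zhx2. Tip30+/- livers lie between -0.38 and -0.11 and livers labelled Ncoa5+/- between 0.18 and 0.78, and the 2 filled wild types lie above the other wild types.

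Other genes of the pathway were read from lists grouped by function. These lists were chosen with earlier results of these data known, so they are not independent of the data. Of 10 listed interferon genes 3 were matched by symbol (Ifna4, Ifnk and Ifng), with at most 5.63 normalized counts in any liver. These were too few reads to be tested at this depth. The other listed interferon genes, Ifnb1 among them, were not matched and have no values here. The receptor gene Ifnar1 differed by log2 -0.25 with the Ncoa5 deletion and was not called (adjusted p = 0.0644). Of 21 sensors, adaptors and inducers tested, only the kinase gene Ikbke rose with the Ncoa5 deletion (log2 0.35 ± 0.10, adjusted p = 0.0397).

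Of 62 other interferon-stimulated genes tested, 21 rose with the Ncoa5 deletion and 1 fell, where 3.94% of all genes were called higher, with a median of log2 0.41. Ly6e, the gene of a membrane-anchored protein that hinders coronavirus entry, separated the groups by the Ncoa5 label. Livers labelled Ncoa5+/- held 28205 to 33908 normalized counts of it and double heterozygotes 20757 to 32711, against 5790 to 11189 in wild type and 4683 to 7072 in Tip30+/-, so groups with and without the label did not overlap. Ly6e rose by log2 1.98 ± 0.15 (adjusted p = 6.59e-07), and it was the only gene of these lists called between Ncoa5+/- and wild type (log2 1.90, adjusted p = 0.000186). Also higher were Ifi27l2b (log2 2.21), Oas1g (1.17), the chemokine gene Cxcl10 (1.15), Ifi27l2a (0.93), Slfn8 (0.91), Phf11d (0.87), Ifi204 (0.75), Slfn2 (0.63), Sp110 (0.61), Nlrc5 (0.61) and Mndal (0.59). The remaining 9 were Ifi203 (0.54), Parp11 (0.51), Ddx60 (0.51), Sp100 (0.45), Trim12c (0.43), Shisa5 (0.37), Ifi30 (0.36), Parp10 (0.33) and Samhd1 (0.25). Nlrc5 activates genes of MHC class I, and Samhd1 encodes an enzyme that depletes deoxynucleotides. The gene that fell was Trim14, which encodes an adaptor of antiviral signalling (log2 -0.42 ± 0.11, adjusted p = 0.0314), and in double heterozygotes against wild type it differed by -0.96 ± 0.16 (adjusted p = 0.00371).

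Of 17 GTPase genes best known as targets of interferon-gamma, 9 rose with the Ncoa5 deletion (against 3.94% of all genes) and none fell, with a median of log2 0.61. They were Gbp8 (log2 1.16 ± 0.19, adjusted p = 0.00179), Tgtp2 (1.09), Tgtp1 (1.09), Gbp6 (1.04), Gbp4 (0.89), Gbp9 (0.82), Gbp2 (0.61), Igtp (0.54) and Gbp7 (0.50). Several of these genes have near-identical copies, so reads may have been split among them. Between double heterozygotes and Tip30+/- livers 9 of 62 other interferon-stimulated genes were called by limma, all higher, where 1.61% of all genes were called higher. Nlrc5 (log2 0.86, adjusted p = 0.00272) was among the 9. Of the 17 GTPase genes only 1 was called, Gbp8, also higher (log2 1.37, adjusted p = 0.0135). Of 21 sensors, adaptors and inducers 0 were called. With the Tip30 deletion over both Ncoa5 backgrounds no gene of these lists was called by limma. At an unadjusted p below 0.05, 9 of 62 other interferon-stimulated genes lay lower and 1 higher, and 5 of 17 GTPase genes lay lower and none higher, against 6.68% of all genes lower.

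Markers of other cells of the liver were read in the same comparison, in which 3.94% of all genes were called higher and 11.8% lay higher at an unadjusted p below 0.05. Of 11 T cell and NK cell markers tested, 8 rose with the Ncoa5 deletion, Cd3e, Cd3g, Cd8a, Cd8b1, Trac, Nkg7, Gzmb and Ccl5. Cd8a, the coreceptor gene of cytotoxic T cells, rose by log2 3.15 ± 0.37 (adjusted p = 6.98e-05), from 6.25 ± 4.03 normalized counts in wild type to 59.2 ± 25.1 in livers labelled Ncoa5+/-. In all livers without the Ncoa5 label Cd8a stood between 0.86 and 10.5 and Cd8b1 between 0 and 4.21, both lowest in wild type 4. Their fold changes therefore rest on a reference of few counts. The summed level of the 14 listed markers was 76.5 to 199.8 in wild type, 268 to 477 in livers labelled Ncoa5+/-, 115 to 161 in the Tip30+/- livers and 197 to 453 in the double heterozygotes. Of 14 Kupffer cell and macrophage markers tested none was called by limma and 7 lay higher at an unadjusted p below 0.05. Their sums were 5734 to 13507, 12323 to 22743, 10940.3 to 13841 and 9952 to 19156 in the same order. Of 8 plasmacytoid dendritic cell markers, which mark the cells that secrete most type I interferon in blood, 2 had enough reads to be tested, Tcf4 and Spib, and neither was called by limma, with Tcf4 higher at an unadjusted p below 0.05. The sums of the 8 were 639 to 767, 656 to 865, 556 to 746 and 684 to 969, and Tcf4 made up most of them (686 ± 48.4 in wild type). Siglech, a defining marker, averaged 4.42 ± 2.95, 7.92 ± 4.58, 3.66 ± 1.73 and 7.56 ± 1.58 in the same order. Ccr9 averaged 4.59 ± 4.20, 8.56 ± 2.93, 5.50 ± 2.59 and 11.8 ± 4.14. Both were below the filter and not tested, and their ranges overlapped between groups with and without the Ncoa5 label. None of 6 B cell, 3 neutrophil and 8 endothelial markers tested was called by limma, and 0, 3 and 1 of them lay higher at an unadjusted p below 0.05. Hepatocyte markers were abundant, with sums of 2427630 to 3701060 over all livers, and of 10 tested only Tdo2 was called (log2 -0.55, adjusted p = 0.0374). At an unadjusted p below 0.05 by limma, 4 of the 10 lay lower and none higher. Their median was log2 -0.35, and 3 of the 10 had a difference above 0, against 48.3% of all genes. Over all genes 7.89% were called in either direction. The share of all genes that lay lower at an unadjusted p below 0.05 is not reported here. No listed marker was at 0 in all 4 livers of a group. The part of these cells in the interferon response values was not tested.

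The calls with the Ncoa5 deletion differ in how far they rest on single livers. Irf7, Bst2, Oas1a, Oas2, Oasl2, Ifitm3 and Isg15 stayed called in all 16 fits that left out 1 liver, and the number of members called ranged from 7 to 17 over these fits, while 610 to 1602 of all genes were called (1205 with all livers). With the mouse tag range as a covariate 20 members were called, with 1937 of 15263 genes. It was 7 without wild type 4, Ncoa5+/- 1, Ncoa5+/- 2, Ncoa5+/- 4 or Tip30+/- 3, and 8 without Tip30+/- 1 or double heterozygote 2. Xaf1 lost the call without any of those first 5 livers (adjusted p up to 0.0581), and Zbp1 and Usp18 without any of all 7 or without double heterozygote 3 (up to 0.0661 and 0.0705). Ifi35 kept its call only without wild type 2 or 3, Ncoa5+/- 3 or double heterozygote 1 or 4 (adjusted p up to 0.0808 in the others). Herc6 kept it only without wild type 2, Ncoa5+/- 3, Tip30+/- 4 or double heterozygote 1 or 3 (up to 0.0980), and Rtp4 only without wild type 1 or 2, Ncoa5+/- 3 or double heterozygote 3 (up to 0.0956). The call of Bst2 between double heterozygotes and Tip30+/- held in 1 of 8 such fits, that without double heterozygote 4, and its adjusted p reached 0.163 in the others.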

How the data were processed

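Liver RNA of 16 mice was measured as 1 library each. The authors deposited a signal table of normalized counts, that is, each gene's reads over the library's size factor. Per the submitters' processing notes they used Trimmomatic 0.36, STAR 2.6.0c, GRCm38 and DESeq2 1.28.1. The sources used here do not give the counting program, annotation release or strain. Per the labels' protocols, mRNA was selected with oligo(dT) and no strand marking is stated. Every deposited value was a whole multiple of its library's step to a tolerance of 0.001, which gave whole reads (100%).

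limma 3.58.1 in R 4.3.3 (trend, robust, 2-sided) was fitted to log2 of the value plus 1 as 4 group means over 16 libraries, for 15263 genes with a mean of at least 10, with Benjamini-Hochberg adjustment over all of them. The Ncoa5 and Tip30 comparisons average both backgrounds. The pipeline was tested on simulated data. Alternatives were edgeR 4.0.16 and DESeq2 1.42.0 on whole reads, pseudocounts of 0.5 and 5, no filter, a mean of at least 50, TMM scaling, mouse tag range (under 4300 or not) as a covariate, the 2 groups alone, each liver left out, and the 4 livers low in Zhx2 left out. The last was chosen after seeing the data. DESeq2 was given all 30199 genes with a read, and its own filter can leave genes of low count without an adjusted p. Shares of 30199 are therefore not shares of genes tested and can be too low.

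The members, gene lists and markers were chosen with earlier results of these data known. Values per liver are given for members called in any comparison and the 6 of smallest p in 3 comparisons (Ncoa5+/- and double heterozygotes against wild type, and the Ncoa5 deletion), 15 in all, and the 20 others by range. From each list the called genes are named, or else those of smallest p. The list of receptors, kinases and negative regulators is an exception: its counts and a called gene are not reported here. Gene positions are from GENCODE M21 on GRCm38.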

Additional observations from a re-analysis of the deposited data

Results flagged for a closer look

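In each genotype the highest and the lowest of the 4 livers were compared with the nearest other liver for each of the 35 members. In 11 of 140 groups the gap to the nearest liver took up more of the group's range than Dixon's 95% critical value for 4 samples allows, 9 times for the highest liver and 2 times for the lowest, where chance gives about 1 in 20. The 11 are not far above that share. The groups share livers and so are not independent, and the share over all genes is not reported here. Double heterozygote 2 stood apart in 4 of them, with Stat2 at 3895 normalized counts (2980.4 to 3136 in the other 3), Dhx58 at 395 (212 to 243), Ifit1 at 614 (254 to 269) and Xaf1 at 303 (117 to 147). In the same genotype Ifih1 read 811 in double heterozygote 3 (717 to 731 in the others).

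In Tip30+/- livers, Tip30+/- 3 was lowest and apart for Irf7 at 568 (703 to 717 in the others) and for Oas3 at 23.3 (38.9 to 40.9). Tip30+/- 2 was highest and apart for Ifit3 at 295 (180.2 to 191) and for Dtx3l at 1591 (1355 to 1392). Tip30+/- 4 was highest and apart for Ifi44 at 87.0 (69.3 to 72.0) and for Parp14 at 882 (644 to 669). No wild-type liver and no liver labelled Ncoa5+/- stood apart by this measure for any member.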

How the results depend on the processing

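Counts of members called are given with the main value first. With the Ncoa5 deletion (13) the count was 9 without a filter, where Zbp1, Usp18, Herc6 and Rtp4 were lost, 12 to 18 in the other settings on all livers or without those low in Zhx2 (chosen after seeing the data), except 20 with the tag range as a covariate, and 7 to 17 with 1 liver left out. For double heterozygotes against Tip30+/- (1) it was 6 by edgeR, 9 by DESeq2, 2 each with a pseudocount of 5, no filter, a mean of at least 50, TMM scaling and without the livers low in Zhx2, 11 with the tag range, 4 in the 2 groups alone and 0 to 6 with 1 liver left out. Against wild type it was 2 for Ncoa5+/- by DESeq2 and 0 to 2 with 1 liver left out (2 without wild type 2). For double heterozygotes (0) it was 3 by DESeq2, 1 with the tag range and 0 to 2 with 1 liver left out (2 without wild type 3). For the Tip30 deletion (0) it was 2 by DESeq2, 1 with the tag range and 0 to 1 with 1 liver left out. Calls over all genes moved too: with the Ncoa5 deletion they were 1205, then 907 without a filter, 1891 by DESeq2, 1937 with the tag range, 602 without the livers low in Zhx2 and 610 to 1602 with 1 liver left out. For double heterozygotes against Tip30+/- they were 469, then 407 by edgeR, 1145 by DESeq2, 494 with a pseudocount of 5, 384 without a filter, 427 with a mean of at least 50, 402 with TMM scaling, 420 without the livers low in Zhx2, 1344 with the tag range, 571 in the 2 groups alone and 107 to 764 with 1 liver left out. Causes were not tested. The difference of Ddx58 with the Ncoa5 deletion, log2 -0.06, was 0.039 without the livers low in Zhx2.

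No paired analysis was possible because the labels give no replicate numbers shared between genotypes and do not say what neighbouring mouse tags have in common. The tags entered only as a range, in the covariate. With 4 livers a group the precision depends on the spread between livers and, for members with few reads, also on depth. The part of each was not tested.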
